A study of Mus musculus with 2 samples.

Results

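Classical monocytes are the Ly6C-high monocytes of mouse blood. They were studied here in droplet single-cell RNA libraries from the blood of db/db mice and of wild-type (wt) controls, and 136 of the 36612 deposited barcodes met the rule for them: 21 of 16700 in the wt library and 115 of 19912 in the db/db library. A barcode was taken when it held 200 to 6000 genes, under 10% mitochondrial UMIs and under 20% haemoglobin UMIs, where a UMI is a molecular tag that counts 1 captured transcript. It also had to show at least 3 of the 6 genes Ly6c2, Ccr2, F13a1, Fn1, Chil3 and Vcan, and more UMIs of these than of 7 nonclassical monocyte genes (Ace, Treml4, Cd300e, Adgre4, Eno3, Fcgr4 and Ear2). Any UMI of a T cell receptor complex gene (Cd3d, Cd3e or Cd3g) or a B cell receptor complex gene (Cd79a or Cd79b) put a barcode out, as did more than 1 UMI of the neutrophil genes Retnlg, Cxcr2 and Mmp9. The rule therefore used the readout itself, and values of the 6 selection genes are given as a description only.

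Each library held blood of 3 male C57BLKs/J mice aged 21 weeks, drawn behind the eye into heparin and cleared of red cells by lysis, with no map of cells to mice. The wt group carries no mutation named in the labels, and the db/db mice lack a working long leptin receptor in every tissue and become obese and diabetic. No treatment is named for either group, and both share strain, sex, age and handling. With 1 library per genotype there was no replicate, no p-value was computed, and the intervals given are at 95% and cover counting error alone; differences between mice, pools or library runs are not in them. Reads were taken at the 3' end of transcripts and Lepr had 0 UMIs in the classical monocytes of both libraries, so the genotype could not be checked from the counts.

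Classical monocytes leave the bone marrow through the chemokine receptor Ccr2 and enter inflamed or injured tissue, where they become macrophages or dendritic cells. Those that stay in blood turn into nonclassical monocytes, which patrol vessel walls, lose Ccr2 and Ly6C and depend on the nuclear receptor Nr4a1. In marrow, monocytes arise through a route close to the granulocyte lineage, which carries granule genes such as Prtn3, and through a route close to dendritic cells, which carries MHC class II genes and Cd209a. Type I interferon, sensed through a receptor at the cell surface, switches on antiviral genes in these cells.

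The cells were the most RNA-rich of the blood classes compared. A wt classical monocyte held between 1454 and 9458 UMIs with a median of 7273, and a db/db one between 657 and 10359 with a median of 5917, against medians of 3128.5 and 2804 in nonclassical monocytes. The sums over all members were 125131 UMIs in wt and 660325 in db/db. Thus 1 UMI is worth 7.99 CPM in wt and 1.51 in db/db, where CPM is the sum scaled to 1000000 UMIs, and a gene with no UMI may have reached 24.0 CPM in wt or 4.54 CPM in db/db (3 counts). Low-expressed genes were therefore measured far less well in wt. Of 91 barcode sequences that both libraries contain, 0 belonged to a classical monocyte.

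The label fitted the data. Lyz2, the lysozyme of monocytes and macrophages, which was no selection gene, reached 26492 CPM in the wt and 23647 CPM in the db/db classical monocytes, against 12484 and 10187 CPM in nonclassical monocytes and 58.0 and 98.6 CPM in B cells. It was detected in 21 of 21 wt and 113 of 115 db/db cells. The defining neutrophil gene Ly6g, which the rule did not use, had 0 UMIs in every member, and the marrow granule genes Mpo, Ctsg, Camp, Ngp and Ltf did too. Other neutrophil and granule genes were present, such as Csf3r with 17 wt and 54 db/db UMIs and Prtn3 with 1 and 59. In neutrophils, Ctsg also had 0 UMIs and Camp only 3 in wt and 1 in db/db. Absence of such genes therefore says little about the label.

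Some members carried genes of other lineages. At least 1 of 6 dendritic cell genes was seen in 5 wt and 19 db/db members, Pf4 or Ppbp of platelets in 8 and 44, Igkc or Ms4a1 of B cells in 5 and 16, and S100a8 or S100a9 in 4 and 32. Between the libraries, the summed erythroid genes, of which Hba and Hbb make up nearly all, summed to 5602 CPM in wt against 15898 CPM in db/db. The 9 measured platelet genes lay lower in db/db (median log2 ratio -0.54), and Gm42418, a gene that overlaps ribosomal RNA, fell from 20011 to 4421 CPM, a fall also seen in nonclassical monocytes (21121 to 6097 CPM) and B cells (30938 to 6328 CPM). The part of these shifts in the results below was not tested, except where a value without such cells is given.

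At the threshold of the rule, barcodes with exactly 2 of the 6 genes that met all other criteria numbered 23 in wt and 21 in db/db, and their Lyz2 was at 1970 and 2175 CPM. Members with exactly 3 genes numbered 5 and 12, with Lyz2 at 16780 and 6527 CPM. Members with all 6 numbered 2 in wt and 55 in db/db. Some barcodes with at least 3 of the genes failed 1 other criterion alone. For the mitochondrial limit these numbered 7 in wt and 2 in db/db, and for the haemoglobin limit 2 and 12. For the lymphocyte genes they numbered 10 and 20, for the nonclassical sum 1 and 9, and for the neutrophil genes 0 and 1. Their part in the shares below was not tested.

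Classical monocytes made up a larger share of the db/db library. They were 0.576% (0.357 to 0.879) of the 3645 wt barcodes within the gene, mitochondrial and haemoglobin limits and 2.92% (2.42 to 3.50) of the 3933 in db/db, by exact Clopper-Pearson intervals, a ratio of 5.08 (3.17 to 8.51). Nonclassical monocytes, chosen by the mirror-image rule, rose from 1.21% to 3.13%, a ratio of 2.59 (1.82 to 3.74). The share of classical cells among all monocytes was 32.3% (21.2 to 45.1) in wt and 48.3% (41.8 to 54.9) in db/db, and the interval of that ratio, 0.934 to 2.51, included 1. Because Chil3 was far higher in db/db, the rule was repeated without it: 20 wt and 110 db/db cells were then found and the ratio was 5.10. With 2 selection genes in place of 3 as the minimum, 44 wt and 136 db/db cells qualified and the ratio was 2.86. A share of barcodes cannot tell more monocytes from fewer of the other cells.

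The selection genes themselves were unequal between the genotypes. Chil3, which encodes the chitinase-like lectin Ym1 (chromosome 3, 106147554 to 106167564, minus strand, GRCm38), was at 0 to 9.48 UMIs per 10000 UMIs of the cell in wt with a median of 0, and at 0 to 178 with a median of 16.4 in db/db. It was found in 7 of 21 wt and 97 of 115 db/db cells, and after each cell was thinned to 1000 UMIs in 1 of 21 and 77 of 113. The summed levels were 128 and 2087 CPM, a ratio of 16.3 (10.0 to 28.6). The groups overlapped, but most db/db cells lay above the highest wt cell. In nonclassical monocytes Chil3 was found in 0 of 44 wt and 26 of 123 db/db cells, at 0 and 167 CPM, so it was also higher there in db/db.

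Fn1, the matrix protein fibronectin, had a cell median of 5.51 per 10000 in wt and 22.2 in db/db, and its sums were 1167 and 2484 CPM. The proteoglycan gene Vcan was at 240 and 459 CPM, and F13a1, which encodes a transglutaminase subunit, was at 695 and 850 CPM. Ccr2 and Ly6c2 lay the other way: Ccr2 at 1614 and 1199 CPM and Ly6c2 at 1015 and 733 CPM. The summed values of these genes thus did not all lie on the same side, and since they selected the cells nothing is read from them. Ly6c2 shares most of its sequence with Ly6c1, so its counts depend on how the reads of both were assigned.

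**Figure D1:**
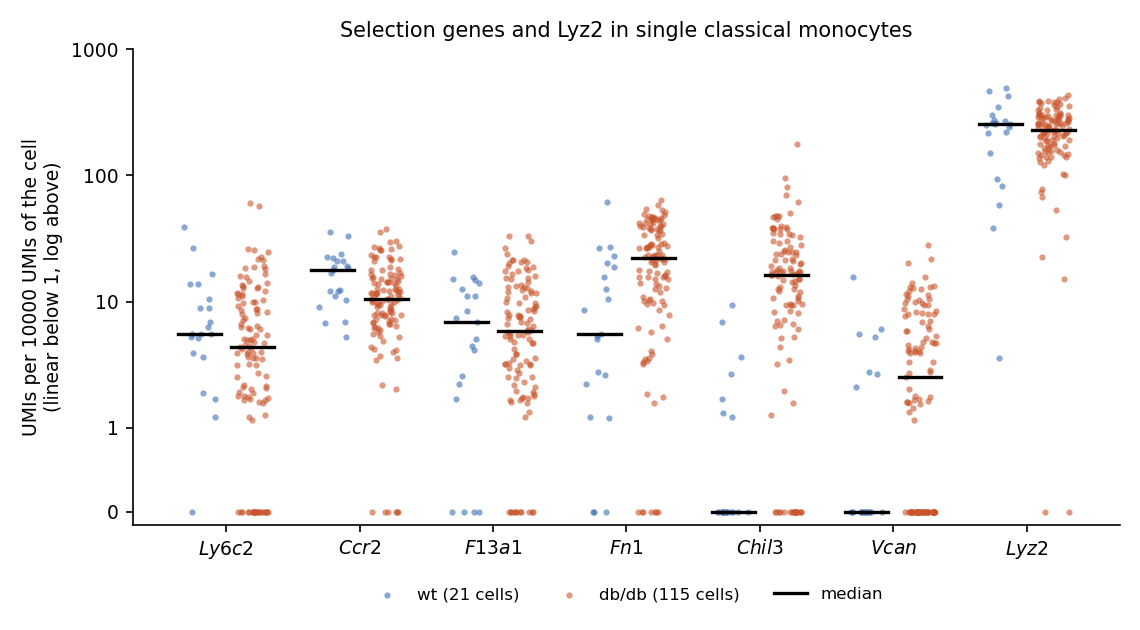
UMIs of the 6 selection genes and of Lyz2 per 10000 UMIs of the cell (vertical axis, linear below 1 and logarithmic above) in each of 21 wt and 115 db/db classical monocytes; each point is a cell and the bar is the median. Chil3 and Fn1 separate the genotypes most, while Lyz2 medians are close, at 255 and 231.

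Across the transcriptome, 4892 genes had at least 20 UMIs over both libraries and were compared as sums per library. A gene was called when log2 of (CPM + 10) differed by at least 1 and the counting interval of the ratio excluded 1. In all, 114 genes were called higher in db/db (2.33%) and 152 lower (3.11%), with a median log2 ratio of 0.01. Scaling by trimmed means (TMM) in place of totals raised the ratios of CPM by 0.15 on the log2 scale and gave 189 higher and 94 lower genes, so the balance of rising to falling genes depends on the scaling. Among 89 ribosomal protein genes, 1 was called higher and 0 lower. Of the other blood classes, nonclassical monocytes had a like share of calls, 2.26% higher and 2.24% lower, from other cell numbers and depths.

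**Figure D2:**
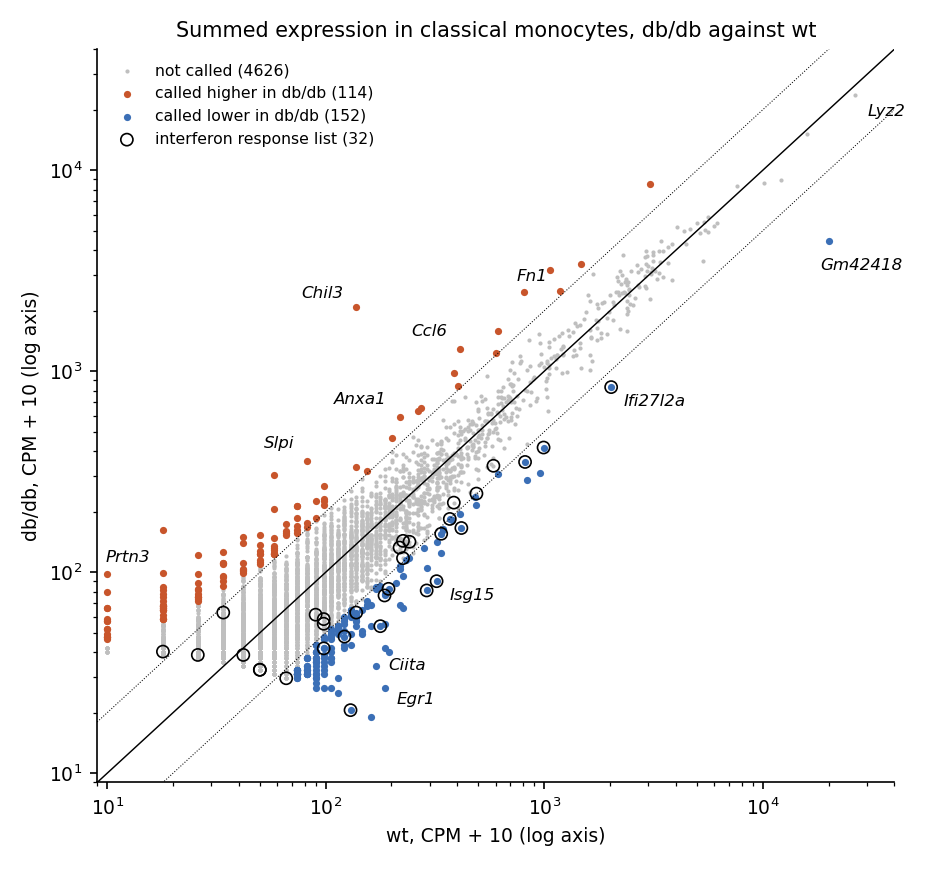
Summed expression of the 4892 measured genes in classical monocytes, wt on the horizontal and db/db on the vertical axis, both as CPM + 10 on logarithmic axes; the solid line marks equality and the dotted lines a 2-fold difference. The 114 genes called higher lie above and the 152 called lower below, and the circled interferon response genes fall mostly below the line of equality.

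Genes of the interferon response fell in the db/db classical monocytes. Of 40 listed genes 39 were in the files and 32 were measured. Of these, 15 were called lower in db/db and 0 higher, against 3.11% of all measured genes called lower, and the median log2 ratio was -1.0 against 0.01. In 29 of the 32 the ratio lay below 0 on the log2 scale, and in 22 its interval lay below equality.

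Summed over the list, a wt cell held between 29.7 and 194 interferon UMIs per 10000 with a median of 93.6, and a db/db cell between 3.85 and 280 with a median of 33.1. Only 7 of 115 db/db cells exceeded the wt median, and 20 of 21 wt cells exceeded the db/db median. The distributions overlapped, and the highest cells of all were in db/db. The 5 richest cells gave 46.0% of the list's UMIs in wt and 21.2% in db/db. The list median stayed between -0.70 and -1.21 under the other settings tried, and was -0.93 among cells with at least 3000 UMIs and -1.03 without cells that carried dendritic cell genes or few Lyz2 UMIs.

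Among the effector genes, Isg15, a ubiquitin-like modifier released and conjugated during antiviral responses (chromosome 4, 156199424 to 156200818, minus strand), was seen in 12 of 21 wt cells, up to 21.9 per 10000, and in 21 of 115 db/db cells, up to 21.0. Its sum fell from 312 to 80.3 CPM, 3.88-fold (2.50 to 5.98). Ifi27l2a, a small interferon-induced gene and the most abundant of the list, had a cell median of 17.6 per 10000 in wt and 6.02 in db/db and fell from 2014 to 824 CPM, 2.44-fold (2.10 to 2.84). For both genes the ranges over single cells of the 2 libraries overlapped.

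Samd9l, which restrains viral translation, fell from 280 to 71.2 CPM, and Oas3, which makes the messenger that activates RNase L, from 112 to 37.9 CPM. The receptor chaperone gene Rtp4 fell from 168 to 43.9 CPM and was found in 12 of 21 wt against 13 of 115 db/db cells. Trim30a, a tripartite motif protein, fell from 408 to 156 CPM. Samd9l, Isg15, Rtp4, Trim30a and Ifi213 were called under every alternative that gave a value.

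Ifi213, of the Ifi200 cluster that holds DNA sensors, fell from 120 to 10.6 CPM, 11.3-fold (4.34 to 32.8), on 15 and 7 UMIs. Outside the list, Ifi206 of the same cluster fell from 104 to 15.1 CPM (13 and 10 UMIs) and Ifi211 from 272 to 123 CPM; both are named after their values were seen. The listed relatives Ifi204, Ifi203 and Ifi209 lay at log2 ratios of -0.79, -0.80 and -0.99 and were not called. In the Schlafen family, Slfn5, Slfn8 and Slfn1 fell with log2 ratios of -1.21, -1.28 and -1.12. Members of both clusters resemble one another, so reads may be shared among them.

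Of the sensing and signalling genes, Ddx58, which encodes the RNA sensor RIG-I, fell from 87.9 to 31.8 CPM. Irf7, the factor that amplifies interferon production, was at 216 and 108 CPM and was not called (log2 ratio -0.94). Ms4a4c, a membrane protein gene of monocytes, fell from 983 to 407 CPM. Another 3 members lay above 0 on the log2 scale: Ifit2, with 1 and 20 UMIs in 1 and 5 cells, Phf11b and Isg20, and none of them was called.

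Promoters of several of these genes hold the interferon-stimulated response element, which interferon-activated transcription factors bind. The element was searched as GAAANNGAA on both strands, with overlapping matches counted, in the 250 bases before the start of each gene in RefSeq (GRCm38.p6). It was present in 16 of 29 promoters found for the list (55.17%), in 7.156% of all 27025 promoters and in 7.313% of those of measured genes. The measured genes of the list with and without it had median log2 ratios of -1.01 over 12 genes and -1.06 over 12 genes. The 150 bases before the start are shown for 4 genes called lower, to place the element next to the measured fall; capitals mark the matches, and each is written 5' to 3' along the gene's strand, here the minus strand. They lie at chr4:156200819-156200968 (Isg15), chr5:120777660-120777809 (Oas3), chr7:104465194-104465343 (Trim30a) and chr11:83020811-83020960 (Slfn8).
Isg15: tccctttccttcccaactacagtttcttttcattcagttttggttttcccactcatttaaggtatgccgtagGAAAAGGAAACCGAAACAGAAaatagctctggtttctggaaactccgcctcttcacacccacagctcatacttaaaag
Oas3: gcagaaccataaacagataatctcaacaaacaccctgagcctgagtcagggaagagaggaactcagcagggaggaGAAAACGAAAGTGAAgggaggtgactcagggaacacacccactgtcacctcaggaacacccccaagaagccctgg
Trim30a: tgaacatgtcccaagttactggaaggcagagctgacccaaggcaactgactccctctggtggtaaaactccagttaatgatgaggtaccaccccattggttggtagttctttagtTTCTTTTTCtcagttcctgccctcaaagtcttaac
Slfn8: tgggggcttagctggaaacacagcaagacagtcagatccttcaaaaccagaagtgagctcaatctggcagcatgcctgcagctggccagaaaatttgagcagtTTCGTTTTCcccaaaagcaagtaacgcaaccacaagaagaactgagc
Isg15 has 3 overlapping matches that begin 78 to 66 bases before the start, and Oas3 has 2 that begin 75 and 69 bases before it. Trim30a and Slfn8 have 1 match each on the opposite strand, 35 and 47 bases before the start. A match describes the letters and does not show that the site is used.

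In nonclassical monocytes of the same libraries the interferon genes moved less. Of the 19 list genes measured in both subsets, 17 had a lower log2 ratio in classical cells, with medians of -0.99 in classical and -0.08 in nonclassical monocytes and a median difference of -0.80. The counting interval of the difference lay below 0 for 6 genes and above 0 for 0. Trim30a was at 408 and 156 CPM in classical but 177 and 133 CPM in nonclassical cells, a difference of -0.97 (-1.81 to -0.13) on the log2 scale, and Zbp1, a sensor of Z-form nucleic acids, differed by -1.22 (-2.23 to -0.21).

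Some genes fell in both subsets. Ifi27l2a fell from 856 to 268 CPM in nonclassical cells, with a difference of 0.39 (-0.05 to 0.82) between the subsets. Ms4a4c fell from 211 to 82.2 CPM there, with a difference of 0.09 (-0.69 to 0.87). In neutrophils, 11 of 18 measured interferon genes were called lower, against 2.86% of all genes measured there, with Ifi27l2a at 1889 CPM in wt against 136 CPM in db/db. The fall was therefore also present outside classical monocytes.

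**Figure D3:**
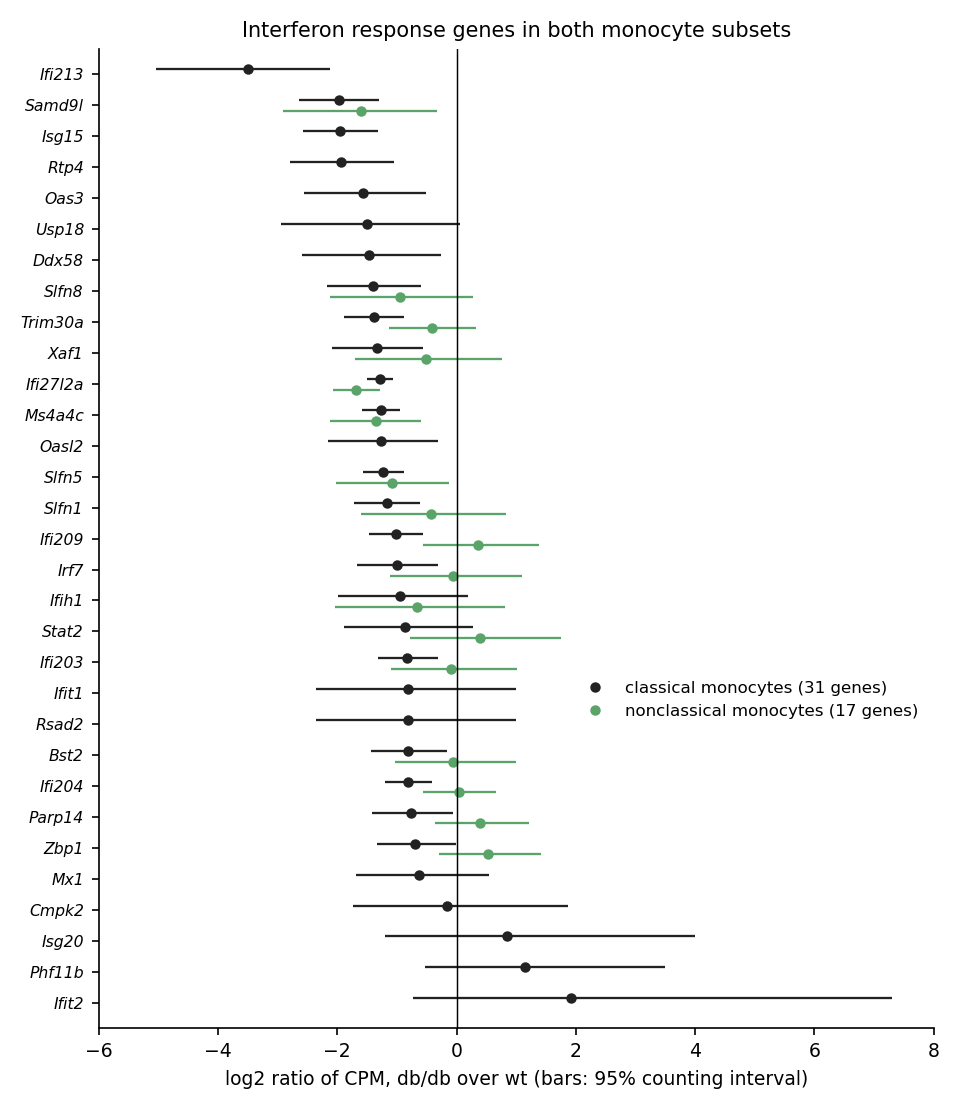
log2 ratio of CPM, db/db over wt (horizontal axis, bars are 95% counting intervals), for 31 of the 32 measured interferon response genes in classical monocytes (black) and for those also measured in nonclassical monocytes with UMIs in both libraries (green). Black points lie left of 0 for 28 of these 31 genes, and green points cluster nearer to 0.

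Of 8 measured targets of interferon gamma, 2 were called lower and 0 higher, against 3.11% of all measured genes called lower. The list median was -0.79. Ifi47, an immunity-related GTPase, was seen in 12 of 21 wt and 40 of 115 db/db cells and fell from 280 to 95.4 CPM, 2.93-fold (1.88 to 4.50). In nonclassical cells its level was 34 CPM in wt against 101 CPM in db/db, so the subsets differed by -3.12 (-4.59 to -1.65) on the log2 scale. Irf8, a transcription factor needed for monocytes and dendritic cells, fell from 480 to 206 CPM in classical cells and was at 74.8 and 249 CPM in nonclassical cells, a difference of -2.96 (-3.96 to -1.95). Without members that carried dendritic cell genes or few Lyz2 UMIs, or under other settings, the log2 ratio of Irf8 ranged from -1.65 to -0.15 and its call was lost in 5 of 19.

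Antigen presentation genes gave a less even picture. All 7 measured MHC class II genes lay below 0 on the log2 scale and 2 were called lower, against 3.11% of all measured genes. Ciita, the master activator of the class, fell from 160 to 24.2 CPM and was found in 10 of 21 wt and 10 of 115 db/db cells. H2-DMb1, a chain of the peptide-loading H2-DM dimer, fell from 184 to 30.3 CPM. The other chain, H2-DMa, was at 487 and 280 CPM, and the presenting chains H2-Aa and H2-Ab1 were at 575 and 359 CPM and at 344 and 251 CPM, none of them called.

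The class II transcripts were concentrated in few cells. The 5 richest cells held 69.9% of 405 UMIs in wt and 66.9% of 1388 UMIs in db/db, and 1 of 21 wt and 25 of 115 db/db cells had 0. The median cell held 12.7 per 10000 in wt and 3.45 in db/db. Of 4 measured dendritic cell genes, 2 were called lower, against 3.11% of all measured genes. Clec10a and Cd209a, both C-type lectins, fell from 176 to 45.4 CPM and from 95.9 to 25.7 CPM. Bst2 had a log2 ratio of -0.77, and Flt3, the receptor of a dendritic cell growth factor, had 3 and 29 UMIs and lay at 0.67. In another setting, members that had UMIs of Ms4a1, Igkc, Nkg7, Pf4 or Ppbp were left out, which kept 11 wt and 59 db/db cells. The class II median was then 0.42 in place of -0.67, so its direction depends on this setting. Fewer genes were also measured there, 2839 against 4892 in all, and the reason for the change was not tested.

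Nonclassical monocytes went the other way in class II genes. H2-Aa rose there from 170 to 904 CPM and H2-Ab1 from 102 to 631 CPM, and for all 5 genes measured in both subsets the interval of the difference lay below 0, from -1.15 for Cd74 to -3.09 for H2-Aa on the log2 scale. There too, 5 of 123 db/db cells held 59.2% of the UMIs. In MHC class I, 1 of 12 measured genes, H2-T23, was called lower, against 3.11% of all measured genes. After thinning H2-T23 lay above 0, at a log2 ratio of 0.07. B2m, the light chain, was at 2382 and 1583 CPM.

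**Figure D4:**
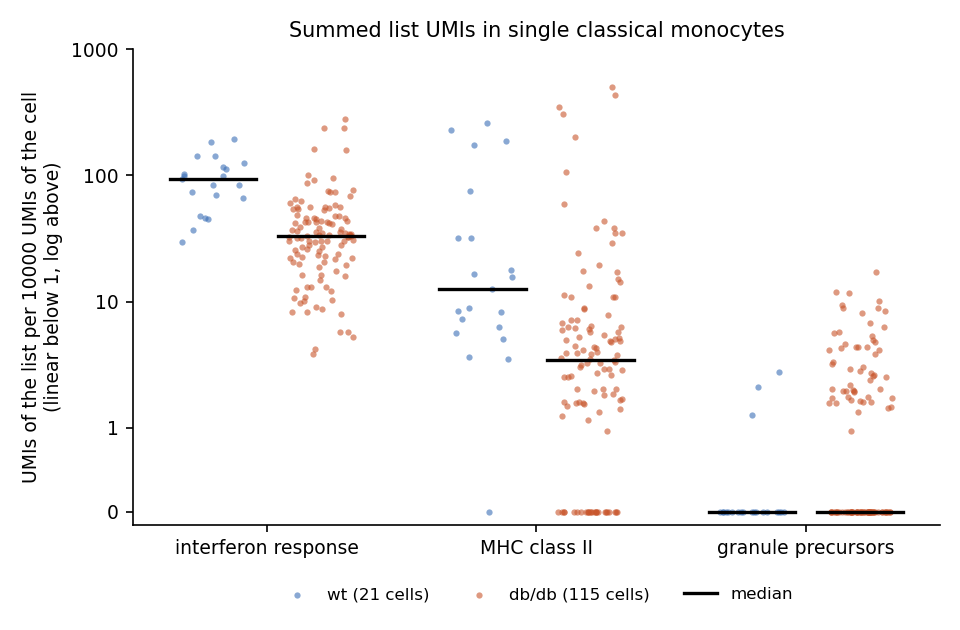
Summed UMIs of the interferon response, MHC class II and granule precursor lists per 10000 UMIs of the cell (vertical axis, linear below 1 and logarithmic above) in each of 21 wt and 115 db/db classical monocytes; bars are medians. Interferon medians are 93.6 and 33.1, class II medians 12.7 and 3.45, and granule precursor genes were found in 3 wt and 56 db/db cells.

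Prtn3 and Lcn2, of the granule precursor list, rose in db/db. They were the 2 genes of the 10 listed that had enough UMIs to be measured, and they passed that minimum only through db/db, so their number supports nothing by itself. Prtn3, the granule protease proteinase 3 (chromosome 10, 79874476 to 79883174, plus strand), had 1 UMI in 1 of 21 wt cells and 59 UMIs in 36 of 115 db/db cells, none with more than 4. Its sums were 7.99 and 89.4 CPM, a ratio of 11.2 (1.93 to 449). The wide interval reflects the single wt UMI.

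Lcn2, the iron-binding lipocalin of specific granules, had 3 UMIs in 2 wt cells and 77 in 29 db/db cells, a ratio of 4.86 (1.6 to 24.1). Elane had 0 and 1 UMIs and Fcnb 1 and 7. The remaining genes of the list had 0 UMIs in both libraries. Nonclassical monocytes had 0 UMIs of the list in either library.

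Of 15 neutrophil genes 5 were measured, and Cyp4f18, Cd177 and S100a8 were called higher, against 2.33% of all measured genes. Cyp4f18, S100a8 and S100a9 passed the minimum of 20 UMIs only through db/db, so the direction of the list is not read from its count. Cyp4f18, a leukotriene-metabolizing cytochrome, had 1 UMI in 1 wt cell and 100 UMIs in 64 of 115 db/db cells, a ratio of 18.9 (3.32 to 756). It also went from 13.6 to 278 CPM in nonclassical monocytes, but was at 587 and 634 CPM in neutrophils. Cd177, a surface partner of proteinase 3, rose from 87.9 to 257 CPM, 2.93-fold (1.6 to 5.98), and was detected in 6 of 21 and 73 of 115 cells. S100a8, a calgranulin, rose from 16.0 to 112 CPM, with 18 of its 74 db/db UMIs in 1 cell.

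Slpi, a secreted inhibitor of neutrophil proteases, was at 0 to 4.90 per 10000 in wt cells and 0 to 21.6 in db/db cells, and its sums were 71.9 and 348 CPM, a ratio of 4.84 (2.51 to 10.7). Neutrophils held more of it, 4119 and 4492 CPM, and B cells 12 and 14.6 CPM. Per 100 UMIs of S100a8, neutrophils held 10.6 Slpi UMIs in wt and 11.7 in db/db, and the classical monocytes held 450 and 311, and for Cd177 the values were 0.172 and 0.184 against 550 and 230. The wt values of the monocytes rest on 2 UMIs of S100a8, and the part of neutrophil RNA in these levels was not tested.

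**Figure D5:**
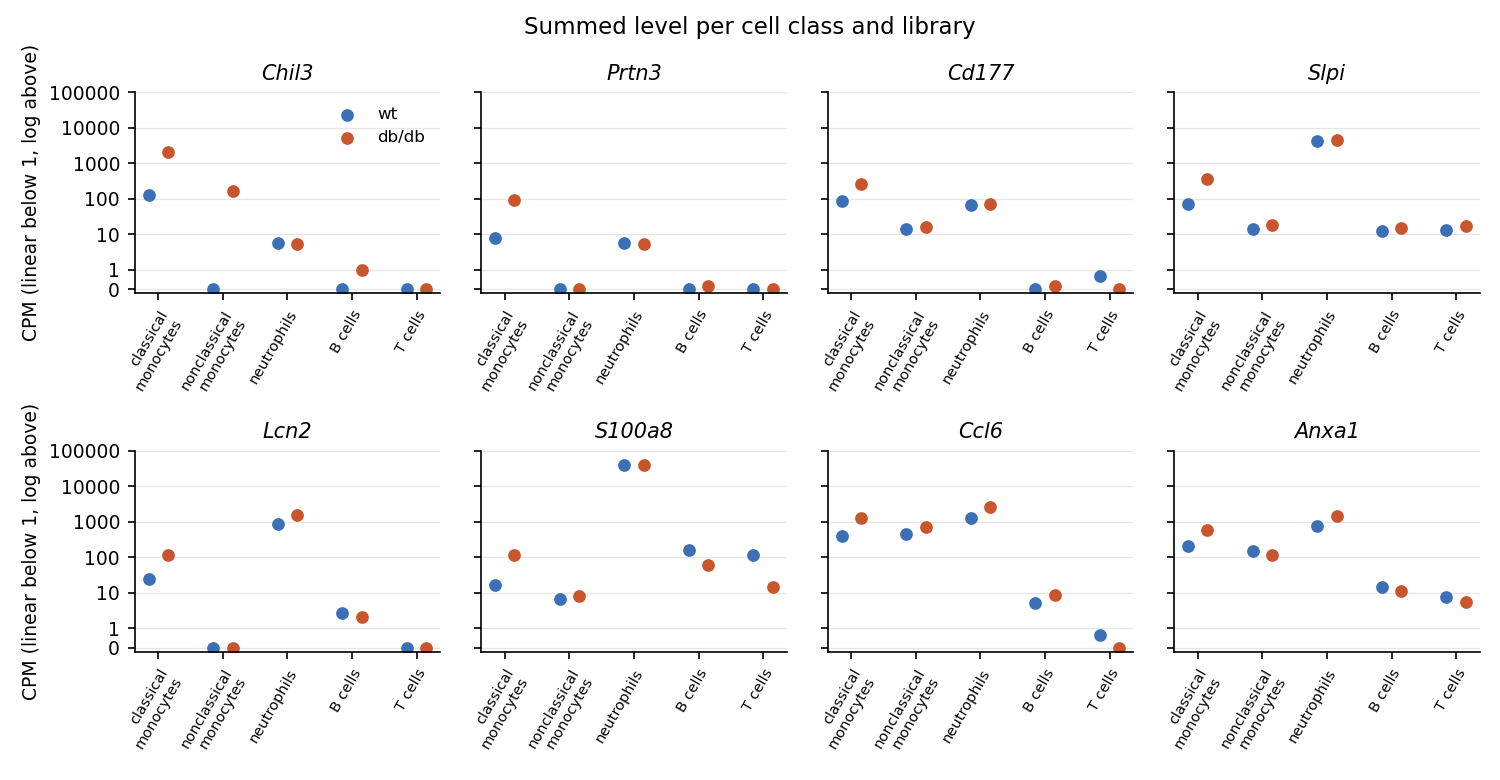
Summed level of 8 genes in 5 blood cell classes, wt in blue and db/db in orange (vertical axis CPM, linear below 1 and logarithmic above; 1 point per library). Prtn3 is highest in db/db classical monocytes, at 89.4 CPM, Cd177 is at 257 CPM there, and Slpi, Lcn2 and S100a8 are highest in neutrophils in both libraries.

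Calcium-binding S100 genes of migrating myeloid cells mostly lay higher in db/db, by under 2-fold. Of 8 measured, 7 lay above 0 on the log2 scale and only S100a8 was called, with a list median of 0.63. S100a8 and S100a9, with 2 UMIs each in wt, passed the minimum to be measured only through db/db. The direction is therefore not read from that count or median. S100a4, S100a6, S100a10 and S100a11, with 67 to 276 UMIs in wt, had log2 ratios of 0.87, 0.51, 0.33 and 0.80. S100a13, with 14 wt UMIs, lay at 0.74 and S100a1, with 8, at -0.13. S100a4, linked to cell motility, had a cell median of 14.8 per 10000 in wt and 30.6 in db/db, and sums of 1654 and 3039 CPM, a ratio of 1.84 (1.59 to 2.13). S100a6 was at 2206 and 3145 CPM and S100a11 at 535 and 940 CPM. Summed over the list, 106 of 115 db/db cells lay above the wt median and 0 of 21 wt cells above the db/db median. Against nonclassical monocytes the log2 ratio was larger by 0.59 (0.22 to 0.97) for S100a4, 0.49 (0.13 to 0.84) for S100a6 and 1.20 (0.57 to 1.83) for S100a11.

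Of 16 glucocorticoid-inducible genes 11 were measured, and Anxa1, Fkbp5 and Ddit4 were called higher, against 2.33% of all measured genes. Ddit4, Fkbp5, Sgk1 and Cxcr4, with 0 to 2 UMIs in wt, passed the minimum of 20 UMIs only through db/db, so the direction of the list is not read from its count. The members with 23 to 64 UMIs in wt were Txnip, Dusp1, Nfkbia, Tsc22d3 and Anxa1. Their log2 ratios were 0.05, 0.18, 0.38, 0.97 and 1.45. Anxa1, an anti-inflammatory annexin, was found in 12 of 21 and 93 of 115 cells and rose from 208 to 585 CPM, 2.81-fold (1.89 to 4.36). Nonclassical monocytes held 150 and 111 CPM of it, a difference of 1.92 (0.98 to 2.86) between the subsets. Neutrophils held 760 and 1400 CPM of Anxa1, so it was also higher there in db/db.

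Fkbp5, a chaperone that dampens the glucocorticoid receptor, had 1 UMI in wt and 47 in 38 db/db cells, a ratio of 8.91 (1.52 to 359). Ddit4, an inhibitor of mTORC1, had 0 and 28 UMIs and was at least 1.77-fold higher against the limit of 3 counts in wt. Tsc22d3, which encodes GILZ, was at 192 and 385 CPM and was not called. Fkbp5 was also higher in db/db B cells (9.21 to 47.5 CPM), so its rise was shared with other classes.

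Among chemokines, Ccl6, constitutively made by myeloid cells, rose. It had a cell median of 4.90 per 10000 in wt and 11.9 in db/db, was found in 16 of 21 and 112 of 115 cells, and its sums were 400 and 1281 CPM, a ratio of 3.21 (2.41 to 4.36). Nonclassical monocytes held 435 and 713 CPM of it and neutrophils 1285 and 2592 CPM, so it was also higher there in db/db. Ccl6 was called in 19 of 19 alternatives. Its neighbour Ccl9 was at 344 and 379 CPM and was not called. The inducible chemokines Ccl3, Ccl4, Ccl7 and Cxcl1 had 0 UMIs in both libraries and Ccl2 had 2 and 3.

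Of 12 measured NF-kB and cytokine genes, 1 was called lower (Bcl3) and 0 higher, against 3.11% of all measured genes called lower. Il1b was at 95.9 and 48.5 CPM (ratio 0.505, 0.253 to 1.08), and Tnf had 0 and 6 UMIs. Inflammatory cytokine transcripts were thus scarce in both genotypes. Of the inflammasome genes, Mefv, which encodes pyrin, fell with a log2 ratio of -1.20, while Nlrp3 had 3 and 41 UMIs and was not called.

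Calls among surface receptor genes lay in both directions. Fpr2, a formyl peptide receptor, had 3 and 66 UMIs, a ratio of 4.17 (1.37 to 20.7). The high-affinity IgG receptor gene Fcgr1 fell from 136 to 40.9 CPM. Fcgr4, a selection gene of the nonclassical side, had 2 and 47 UMIs. Fpr2 and Fcgr4 passed the minimum of UMIs to be measured only through db/db. Their calls are therefore not read as a direction of the receptor genes. Thbs1, the matricellular thrombospondin of platelets and monocytes, fell from 328 to 115 CPM and was in 5 of 21 and 31 of 115 cells.

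Among transcription factors, Cebpa, which drives granulocyte and monocyte fate, rose from 55.9 to 164 CPM and was found in 7 of 21 and 62 of 115 cells. Cebpa was also higher in db/db nonclassical monocytes, at 13.6 and 69.0 CPM (2 and 26 UMIs), and was at 27.9 and 15.6 CPM in neutrophils. Klf2, a regulator of quiescence, rose from 376 to 974 CPM, 2.59-fold (1.93 to 3.57). Egr1 and Jun, immediate early genes, fell from 176 to 16.7 CPM and from 120 to 39.4 CPM. Fos (855 and 672 CPM) and Junb (1047 and 1030 CPM) were not called. Egr1 was also lower in db/db nonclassical monocytes (40.8 to 10.6 CPM), neutrophils (251 to 44.3 CPM) and B cells (23.3 to 3.20 CPM). T cells held 6.66 and 8.96 CPM of it. Spi1 and Cebpb, which define the myeloid lineage, were at 671 and 557 CPM and at 711 and 784 CPM and were not called.

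In lipid handling, 2 of 15 measured genes were called higher, against 2.33% of all measured genes. Apoe, the carrier apolipoprotein, had a cell median of 9.72 per 10000 in wt and 24.8 in db/db and rose from 1470 to 3426 CPM. Nonclassical monocytes held more of it, 5104 and 8606 CPM, and the difference of the log2 ratios was 0.47 (0.22 to 0.71). Lpl, lipoprotein lipase, had 0 and 31 UMIs, the latter in 10 cells, and was at least 1.958-fold higher. Lpl passed the minimum of UMIs to be measured only through db/db, so the direction of the list is not read from its calls. Cd36 had 0 and 1 UMIs.

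Metabolic and housekeeping lists gave no calls. Of 23 oxidative phosphorylation genes, 13 glycolysis genes, 11 unfolded protein response genes, 16 lysosome genes, 13 pathogen sensing genes and 14 insulin and leptin signalling genes measured, 0 were called in either direction, with medians of 0.15, 0.31, 0.30, -0.15, 0.14 and -0.11. The last and the pan-myeloid list, with 0 of 16 called and a median of -0.13, lay above 0 under TMM scaling, at 0.04 and 0.02. Of 17 cell cycle genes 4 were measured, and Hmgb2, a chromatin protein, rose from 264 to 650 CPM. Mki67 had 1 and 0 UMIs and Top2a 1 and 3, so no proliferating population was detectable at this depth.

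The largest ratios also included genes carried by single cells or by a few UMIs. Saa3, an acute-phase serum amyloid, had 0 and 58 UMIs, 44 of them in 1 cell. Gzma, a granzyme of killer lymphocytes, had 0 and 46 UMIs, 43 of them in 1 cell, and its log2 ratio was -2.37 when 2 selection genes sufficed. Stx12, Mdm1, Zfp62 and Sos2 had 0 UMIs in wt and 31 to 37 in db/db, spread over 22 to 30 cells with at most 4 in a cell, and were at least 1.958-fold to 2.34-fold higher. Lars2 and AY036118 fell from 943 to 301 CPM and from 823 to 277 CPM together with Gm42418, and reads of ribosomal RNA can be counted in all 3.

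Against nonclassical monocytes, the classical cells kept a large common difference in both libraries. Of 2348 genes measured in both and outside the rule, 50 were higher in classical cells in both libraries (2.13%), 104 were lower in both (4.43%) and 4 differed in opposite directions. The partner genes of nonclassical monocytes that the rule did not use were lower in classical cells for 9 of 11 measured, and those of classical monocytes were higher for 3 of 10. Both subsets were chosen on correlated genes of the same cells, so these counts describe the classes.

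Wfdc17, a whey acidic protein of macrophages, was at 320 CPM in classical and 20.4 CPM in nonclassical cells of wt, against 285 and 23.9 CPM in those of db/db. Vim, the intermediate filament vimentin, was at 2294 and 347 CPM in wt, against 3786 and 692 CPM in db/db. Cd36, a fatty acid and lipoprotein receptor, lay far on the other side, at 442 and 488 CPM in nonclassical cells and 0 and 1 UMIs in classical cells. Fabp4, a fatty acid carrier, was at 401 and 337 CPM in nonclassical cells against 0 and 3 UMIs. These levels kept their order in both genotypes.

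Isg15, Thbs1 and H2-DMa were nearer between the subsets in db/db than in wt. Isg15 was at 312 CPM in classical and 20.4 CPM in nonclassical cells of wt, against 80.3 and 26.5 CPM in those of db/db. Thbs1 was at 328 and 34 CPM in wt, against 115 and 39.8 CPM in db/db. H2-DMa was at 487 and 40.8 CPM in wt, against 280 and 172 CPM in db/db. The genotype ratio of classical minus nonclassical cells differed by -2.34 (-4.29 to -0.38) on the log2 scale for Isg15, -1.74 (-3.30 to -0.18) for Thbs1 and -2.88 (-4.16 to -1.6) for H2-DMa. The nonclassical levels rest on few UMIs: 3 in wt and 10 in db/db for Isg15, 5 and 15 for Thbs1, and 6 and 65 for H2-DMa. Isg15 did not reach the minimum of 20 UMIs in that subset.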

How the data were processed

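Droplet 3' RNA libraries of blood leukocytes from wt and db/db mice, 1 per genotype, were analysed. The authors deposited UMI counts per gene and barcode, made with Cell Ranger 3.0.2 against mm10 per the submitters' processing notes. Doublets were not called, and filters on cells before deposit are not given in the sources used here. The members, the 41 gene lists and the tests were chosen with earlier results of these data known. Member UMIs were summed per library and expressed as CPM. Ratios were formed after adding 10 CPM, for genes with at least 20 UMIs over both libraries, with exact Poisson and conditional binomial intervals at 95%. Sums run from 125131 to 660325 UMIs, so intervals are wider in wt. Shares have exact Clopper-Pearson intervals. Differences between subsets are log2 ratios of ratios, with normal intervals from the UMI counts. Thinning drew 1000 UMIs per cell. A comparison class needed the same limits and its own marker genes: the 7 nonclassical genes, the neutrophil genes with S100a8 or S100a9, or a receptor complex gene of B or T cells.

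Named genes are the 10 highest and 10 lowest log2 ratios with at least 30 UMIs in the higher library, an interval that excludes 1 and a level of at least 10% of that in any other class, without ribosomal, mitochondrial, haemoglobin, immunoglobulin and unnamed genes, plus members of the lists. Between subsets, the same number each way were ranked on the mean of both libraries. Gene coordinates are GRCm38. Computation used Python 3.11.15 with numpy 2.4.6, scipy 1.17.1 and pandas 2.3.3, and the scripts were tested on simulated data. Other limits, scalings, count minimums and rules for members were tried. A few genes of the lists are counted but not reported here by name.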

Additional observations from a re-analysis of the deposited data

How the results depend on the processing

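The comparison of shares, counts of calls and the subset difference gave 83 values under alternatives, of which 68 stayed within the limits set and 15 moved. With 2 selection genes as the minimum, the share ratio was 2.86 and 236 of 5570 measured genes were lower, against 152 of 4892 in the main setting. TMM scaling gave 189 higher and 94 lower genes. Thinning to 1000 UMIs gave 31 and 33, but of only 1044 genes still measured. A pseudocount of 50 gave 40 and 30 of 4892, as fewer low genes could reach the fold. Without members carrying genes of other lineages, 89 of 2839 measured genes were lower, and with at least 50 UMIs per gene 48 of 2435 were. These totals are smaller too. Set against them, the share called lower stayed close to the main setting without such members and was smaller with at least 50 UMIs. Between subsets, a pseudocount of 50 gave 30 higher and 69 lower of 2348 genes. A minimum of 50 UMIs gave 23 and 46 of 822, and a minimum of 10 UMIs gave 82 higher of 4189.

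Of 67 genes followed, 24 kept their call in every alternative that gave a value. Over 1183 such values, 1060 kept the call, 120 lost it and 3 reversed: Gzma (-2.37 with 2 selection genes), H2-T23 (0.070 after thinning) and Hspa1a (0.017 when Chil3 and Fn1 were not used to select). The dendritic cell median was 0.10 without Chil3 and Fn1, the NK cell median was -2.04 with 2 selection genes, and the MHC class II median was 0.42 without members carrying other lineages. The causes were not tested. Selection without Chil3, without Chil3 and Fn1, from 3000 UMIs upward, or without dendritic cell genes was added after seeing the data. No paired analysis was possible because each genotype has 1 library. The 21 wt cells limit every comparison: a gene absent there may have been present at up to 24.0 CPM.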

Other observations

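Members of 2 further lists were called in db/db classical monocytes. Of 20 measured oxidase and antioxidant genes, 1 was called lower, catalase (Cat, 11 and 25 UMIs), against 3.11% of all measured genes. In this list 15 genes lay above 0 on the log2 scale, with a list median of 0.40. The mitochondrial peroxiredoxin gene Prdx5 had 105 and 941 UMIs (log2 ratio 0.76), thioredoxin (Txn1) 32 and 293 UMIs (0.77), superoxide dismutase Sod1 12 and 123 UMIs (0.89) and the oxidase subunit gene Cybb 242 and 1003 UMIs (-0.35). None of these 4 was called. Summed over the list, the cell median was 91.2 UMIs per 10000 in wt and 120 in db/db, and 95 of 115 db/db cells lay above the wt median. Of 9 measured heat shock genes, 1 was called lower, Hspa1a (10 and 18 UMIs), against 3.11% of all measured genes. Hspa1a shares nearly all its sequence with Hspa1b (5 and 9 UMIs), while Hspa8 (181 and 907 UMIs) had a log2 ratio of -0.07.

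Of 12 measured classical monocyte genes that the rule did not use, 2 were called higher, among them Hp, and 2 lower (Ms4a4c and Thbs1). The list median was 0.43. Over all measured genes, 2.33% were called higher and 3.11% lower. Hp, which encodes the haemoglobin-binding protein haptoglobin, reached 591 CPM in wt against 1227 CPM in db/db, but its call was lost in 7 of 19 alternatives. Plac8 was at 5330 and 3541 CPM and Mgst1 at 368 and 703 CPM, and neither was called.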
